A study of Mus musculus with 30 samples.

Results

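Myelin is the membrane that oligodendrocytes wrap around axons, and its genes are switched on together when an oligodendrocyte precursor matures under transcription factors such as Sox10 and Myrf. In the mouse cortex this maturation continues through adolescence. The 9 genes described here encode proteins of central myelin and of mature oligodendrocytes: Mbp, Mobp, Mal, Cnp, Cldn11, Mag, Mog, Opalin and Ermn. They were taken by symbol from the 18240 genes of the deposited table, and all 9 were found. The questions put to them were whether they differed by genotype, by drug and by sex, and how they varied together over the libraries once the group means were removed.

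Stranded poly(A) RNA sequencing was run on prefrontal cortex taken at postnatal day 40 from C57BL/6J mice. The 30 libraries formed 8 groups by Adnp genotype, treatment and sex. Mice heterozygous (HT) for Adnp, which encodes a homeodomain chromatin protein, received fluoxetine, a serotonin reuptake inhibitor (4 female and 4 male libraries), lithium, a mood stabilizer (3 female and 4 male), or vehicle (4 female and 3 male), and wild-type (WT) mice received vehicle (4 female and 4 male). No WT mice received a drug, so each drug was compared within HT mice, and both drugs share the HT vehicle libraries as their control, which also enter the genotype comparison. Neither the mutant allele nor the drug doses are given in the sources used here. Nothing in the labels says that the libraries of a group came from separate mice, so a p-value reflects only the spread among the libraries, which may be technical.

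The reads per library ranged from 23771758 to 34307061, and each value given is a normalized count, the reads of a gene divided by its library's size factor. As a check of the genotype labels, the summed normalized count of Adnp and the overlapping gene Gm20716 was 3404 to 3887 in the 22 HT libraries and 4226 to 4433 in the 8 WT libraries. All libraries carried the same batch label. Every pair of libraries within a group differed by more than counting noise.

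The 9 genes were well measured, with 170 reads for the lowest value of any of them in any library. Mbp, the cytosolic protein that presses the membrane layers together, was the most abundant, with a mean of 43408 normalized counts over the 30 libraries and a range of 23841 to 66492. Together the 9 genes took between 0.142% and 0.388% of a library's normalized counts. In bulk tissue, fewer oligodendrocytes and less RNA per oligodendrocyte cannot be told apart.

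The genes lie on 8 chromosomes (GRCm38), Mal and Ermn sharing chromosome 2. Mbp (ENSMUSG00000041607) spans chr18:82475146-82585637 on the plus strand, Mobp (ENSMUSG00000032517) chr9:120149707-120181484 on the plus strand, Cnp (ENSMUSG00000006782) chr11:100574904-100591729 on the plus strand and Cldn11 (ENSMUSG00000037625) chr3:31149920-31164324 on the plus strand. Mal (ENSMUSG00000027375) lies at chr2:127633226-127656695, Ermn (ENSMUSG00000026830) at chr2:58045113-58052864, Mag (ENSMUSG00000036634) at chr7:30899176-30914873, Mog (ENSMUSG00000076439) at chr17:37010743-37023398 and Opalin (ENSMUSG00000050121) at chr19:41061710-41077113, all 5 on the minus strand. Mobp shares 79 exonic bases with Gm38642 on the same strand and Cnp shares 154 with Dnajc7 on the opposite strand, so a small share of their reads could belong to those neighbours.

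Levels between genes were compared per kilobase of exon. On that scale Mbp led with a mean of 5125 normalized counts per kilobase, followed by Mobp, a small basic protein of the compacted membrane, with 1906. Cnp, the cyclic nucleotide phosphodiesterase that keeps cytoplasmic channels open in the sheath, had 1537, Mal, a proteolipid of membrane rafts, had 1403, and Cldn11, the claudin of the tight junctions between myelin layers, had 1277. Mag, the adhesion protein of the membrane facing the axon, had 793 and Mog, found on the outer surface of the sheath, had 581. The genes of lowest level were Ermn, a cytoskeletal protein of mature oligodendrocytes, with 195, and Opalin, a transmembrane glycoprotein of oligodendrocytes, with 111.

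Because the genes varied together, the bases just upstream of their starts were read for letters linked to oligodendrocyte factors. The set of RefSeq (GRCm38.p6) start windows used here held 10 windows for 8 of the genes and none for Mbp. The 250 bases before each start were searched on both strands. The form CTGGNAC, searched for Myrf with any base at N, was found in Mog, Mag and Cnp, 3 of 8 genes, against 17.9% of 27025 genes with a window. This form is loose, and which bases at N Myrf binds was not tested. The form ACAAAG, bound by Sox10 and its relatives, was found in Mag, Mobp, Cnp and Opalin, 4 of 8 genes, against 18.6% of all genes, and Mobp held 6 copies of it. AACAAT, a further Sox form, CAGCTG, an E-box, and TATAAA, the TATA box, were in none of the 8 genes, against 10.9%, 14.7% and 14.3% of all genes, and GGGCGG, a GC box, was in Cnp alone, against 35.4%. Windows holding CTGGNAC and the Mobp window with its repeated Sox letters are shown 5′ to 3′ on the strand of the gene. The CTGGNAC and ACAAAG matches, or their reverse complements, are in capitals. Mog is at chr17:37023399-37023498 (minus strand), Mag at chr7:30914923-30915022 (minus strand), Mobp at chr9:120149492-120149642 (plus strand) and Cnp at chr11:100574689-100574899 (plus strand).
Mog: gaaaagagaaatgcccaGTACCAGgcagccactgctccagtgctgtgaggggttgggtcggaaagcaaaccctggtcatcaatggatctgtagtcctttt
Mag: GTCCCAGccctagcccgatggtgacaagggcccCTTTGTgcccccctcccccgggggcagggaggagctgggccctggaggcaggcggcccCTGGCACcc
Mobp: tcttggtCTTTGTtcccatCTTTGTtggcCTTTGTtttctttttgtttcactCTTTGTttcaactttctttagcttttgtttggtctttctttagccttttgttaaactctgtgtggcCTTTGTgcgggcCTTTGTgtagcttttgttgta
Cnp: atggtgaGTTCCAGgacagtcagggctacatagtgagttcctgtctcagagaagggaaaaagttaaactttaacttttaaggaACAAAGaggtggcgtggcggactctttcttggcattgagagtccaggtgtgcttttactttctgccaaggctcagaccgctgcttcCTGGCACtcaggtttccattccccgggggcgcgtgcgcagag
Mog has its single CTGGNAC match 83 to 77 bases before the start. Mag, with the second of its 3 start windows shown, has CTGGNAC matches at both ends of the stretch, and Cnp has 2 CTGGNAC matches and 1 Sox match. These matches describe the letters in the windows and were not measured as bound sites.

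Within groups, Mbp spanned a wide range. In HT fluoxetine females it had 27817, 58299, 30783 and 64940.0 normalized counts, and in HT fluoxetine males 23841, 47115, 42409.8 and 37793. In HT lithium females it had 44820.1, 53829 and 37382, and in HT lithium males 36729, 39159, 36412 and 33186. HT lithium males were the most even of the 8 groups for Mbp, and HT fluoxetine females split into a low and a high pair. In HT vehicle females Mbp had 46513, 40636, 29362 and 49542, and in HT vehicle males 57003, 45133 and 54299.7. WT vehicle females had 42736, 28793, 40306 and 49962, and WT vehicle males 61930.1, 31388, 66492 and 43622. The lowest library of all was thus an HT fluoxetine male and the highest a WT vehicle male. Every treatment arm held libraries above and below 42573, the median over the 30 libraries. The HT lithium arm had the narrowest range, 33186 to 53829.

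**Figure D1:**
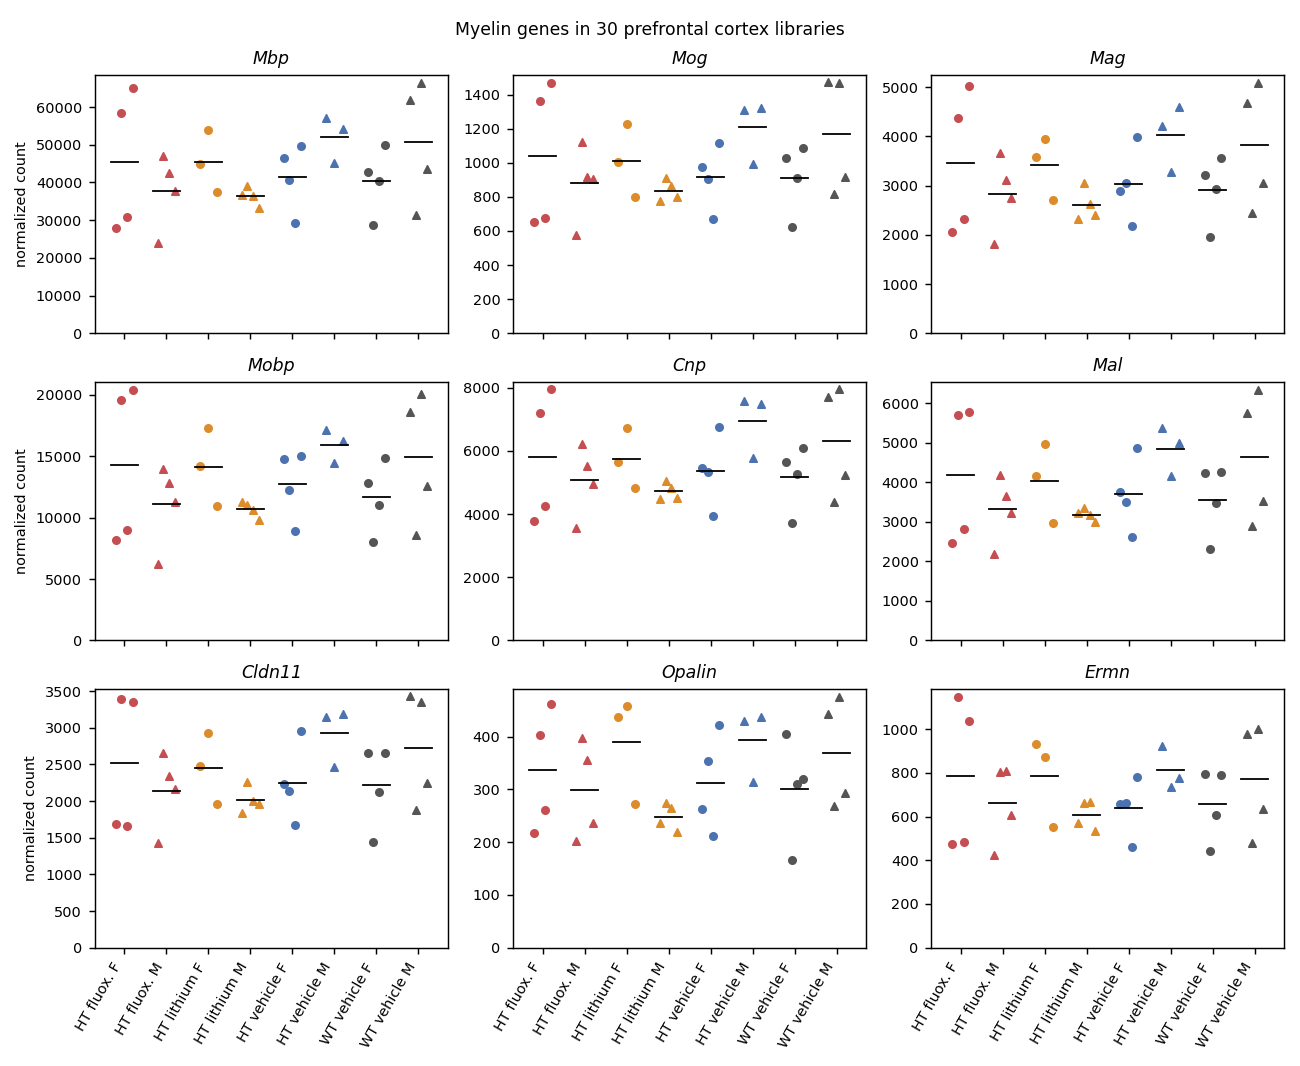
Normalized count (linear axis from 0) of each of the 9 genes in the 30 libraries, by group; each point is 1 library (circles female, triangles male) and the line is the group mean. In HT fluoxetine females replicates 1 and 3 were low and 2 and 4 high in all 9 panels. In HT lithium males the order changed between genes. There replicate 1 was the highest for Mobp and the lowest for Mog, Mag, Cnp and Cldn11.

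The other compacted-membrane genes followed Mbp. Mobp had a median of 12035 normalized counts in HT fluoxetine libraries (6209.9 to 20352, n = 8), 10995 in HT lithium libraries (9781 to 17309.6, n = 7), 14750.1 in HT vehicle libraries (8949 to 17112, n = 7) and 12664 in WT vehicle libraries (7994 to 20064, n = 8). Mal had a median of 3437 in HT fluoxetine libraries (2195 to 5767), 3218 in HT lithium libraries (2976 to 4969.6), 4148 in HT vehicle libraries (2621 to 5366) and 3882 in WT vehicle libraries (2304 to 6335). For both genes the 4 arms overlapped, and the fluoxetine and WT vehicle arms held the extreme libraries.

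Cnp and Cldn11, the genes of the cytoplasmic channels and the junctions, had the same pattern. Cnp had a median of 5234 in HT fluoxetine libraries (3559 to 7963), 4838 in HT lithium libraries (4481 to 6724), 5782 in HT vehicle libraries (3950.4 to 7563) and 5453 in WT vehicle libraries (3723 to 7967). Cldn11 had a median of 2249 in HT fluoxetine libraries (1422 to 3387), 2002 in HT lithium libraries (1839.5 to 2936), 2469.7 in HT vehicle libraries (1671 to 3182) and 2447 in WT vehicle libraries (1436 to 3430.2). Cnp was the steadiest of the 9, with its highest library 2.24 times its lowest, while Mobp reached 3.28 times.

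The surface proteins Mag and Mog also overlapped between arms. Mag had a median of 2927 in HT fluoxetine libraries (1821 to 5033), 2715 in HT lithium libraries (2316 to 3939.8), 3268 in HT vehicle libraries (2173 to 4601) and 3134 in WT vehicle libraries (1963 to 5093). Mog had a median of 913 in HT fluoxetine libraries (578 to 1469.7), 862 in HT lithium libraries (775 to 1228), 996 in HT vehicle libraries (668 to 1321) and 972 in WT vehicle libraries (622 to 1473). For both, the lithium arm had the lowest median and the narrowest range of the 4 arms.

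Opalin and Ermn, the low-level genes of mature oligodendrocytes, completed the set. Opalin had a median of 308 in HT fluoxetine libraries (202 to 462), 273 in HT lithium libraries (219 to 458), 353 in HT vehicle libraries (211 to 437) and 316 in WT vehicle libraries (167 to 475). Ermn had a median of 705 in HT fluoxetine libraries (425 to 1148), 662 in HT lithium libraries (533 to 933), 738 in HT vehicle libraries (459.5 to 924) and 714 in WT vehicle libraries (442 to 1003). Opalin alone had its lowest library outside the fluoxetine arm, in WT vehicle female 2.

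Between genotypes, HT vehicle against WT vehicle, none of the 9 genes was called (limma, adjusted p under 0.05 over 16824 genes whose mean was 10 or more), where 0.731% of all genes tested were. Their differences were small and all positive, with a median of 0.09 on the log2 scale against 0.00 for all genes. Mobp had the largest, 0.15 (SE 0.23, 95% interval -0.32 to 0.62, adjusted p 0.968), and Mog the smallest, 0.05 (SE 0.20, adjusted p 0.983). The intervals of the 9 genes together reached from 0.757-fold to 1.54-fold, so differences within a gene's interval are not excluded. The positive sign rested on single libraries: the median was -0.01 without WT vehicle female 2, and it also turned negative without WT vehicle male 2. With scores of striatal and olfactory bulb markers as covariates it was 0.01. The striatal markers varied with the 9 genes themselves (r 0.882, group means removed). A fit with these covariates, here and below, therefore also removes variation that the myelin genes share with the scores, whatever its source.

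The genotype difference was small in each sex. It had a median of 0.05 in females and 0.13 in males, where 0.256% and 0.226% of all genes were called and none of the 9. Ermn was the single gene with a negative value, -0.03 (SE 0.30) in females. The female median was -0.14 without WT vehicle female 2 and also turned negative without HT vehicle female 4. The male median was -0.07 without WT vehicle male 2, -0.06 with the marker covariates (1 of 9 positive) and 0.08 with the replicate number as a block. The difference between the sexes in the genotype effect, female minus male, had a median of -0.07 and called none of the 9 (0% of all genes), and with the marker covariates that median was 0.12.

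Fluoxetine against vehicle in HT mice called none of the 9 genes, where 0.0357% of all genes were called. All 9 differences were negative, with a median of -0.21 (log2) against 0.00 for all genes. Mobp had -0.26 (SE 0.23) and Ermn, the nearest to 0, -0.07 (SE 0.22), and the adjusted p of limma was 1 for all 9. The intervals of the 9 reached from 0.602-fold to 1.30-fold.

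Fluoxetine males had a median difference of -0.48 from vehicle males, and fluoxetine females a median of 0.11 from vehicle females, in which 0.0178% and 0% of all genes were called and none of the 9. In males Mobp had 6209.9, 13996, 12791 and 11279.9 normalized counts with fluoxetine, against 17112, 14464 and 16254 with vehicle. Mobp was the single gene of the 9 whose male groups did not overlap, in a comparison where 2.59% of all genes were lower without overlap, and its difference was -0.59 (SE 0.33, limma adjusted p 0.958). The difference between the sexes, female minus male, had a median of 0.59 over the 9 genes, and limma called none (lowest adjusted p 0.779, 0% of all genes). The positive female median was not stable: it was -0.09 without HT fluoxetine female 4, it also turned negative without HT fluoxetine female 2 or HT vehicle female 3, and with the marker covariates it was -0.15 with 0 of 9 values positive.

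Lithium against vehicle in HT mice likewise called none of the 9, where 0.0892% of all genes were called. The 9 differences were negative, with a median of -0.20. Mal had -0.23 (SE 0.22, adjusted p 0.879 by limma), Cnp -0.22 (SE 0.18, 95% interval -0.60 to 0.15) and Ermn -0.07 (SE 0.23). With the same covariates the median became 0.01, and 7 of the 9 values were positive.

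**Figure D2:**
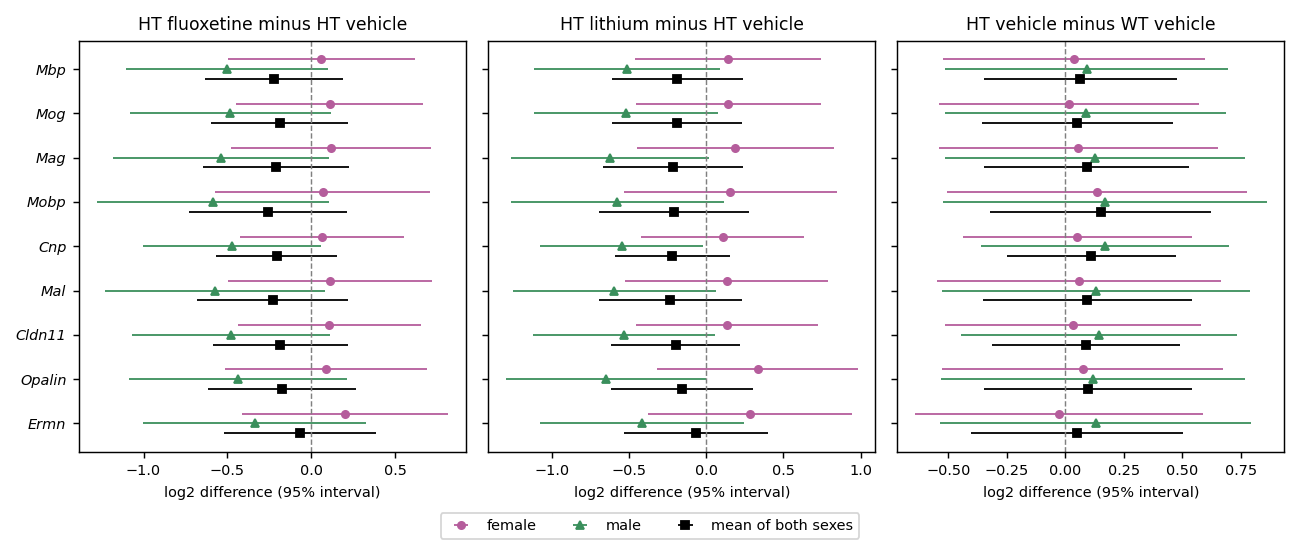
Difference in log2(normalized count + 1) of each of the 9 genes for fluoxetine, lithium and genotype; points are limma estimates for females (circles), males (triangles) and the mean of both sexes (squares), and bars are 95% intervals. The male estimates for both drugs lie left of 0 for all 9 genes, with medians of -0.48 and -0.55, and the bars cross 0 except those of Cnp and Opalin in lithium males.

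In males the lithium and vehicle groups did not overlap for any of the 9 genes, all lower with lithium, in a comparison where 4.57% of all genes tested were lower without overlap. Cnp had 4481, 5055, 4838 and 4505 normalized counts in lithium males, against 7563, 5782 and 7489 in vehicle males. Opalin had 235, 274, 265 and 219 in lithium males, against 429.7, 314 and 437 in vehicle males. Mag had 2316, 3058, 2619 and 2409.8 in lithium males, against 4208, 3268 and 4601 in vehicle males. For all 3 genes vehicle male 2 was the lowest of the vehicle libraries and lay nearest to the lithium libraries. Mobp had 11248, 10995, 10659 and 9781 in lithium males, against 17112, 14464 and 16254 in vehicle males. Mal had 3218, 3349, 3173 and 2983 in lithium males, against 5366, 4148 and 4994 in vehicle males. Since the 9 genes varied together from library to library, these separations are not 9 independent observations.

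The fit over all libraries did not call the male lithium difference. Its median over the 9 genes was -0.55, with Opalin at -0.65 (SE 0.31), Mag at -0.62 (SE 0.31), Cnp at -0.55 (SE 0.26) and Ermn at -0.42 (SE 0.32). Cnp and Opalin had an unadjusted p under 0.05, 0.0428 and 0.0492, as did 13.8% of all genes tested, and the lowest adjusted p of the 9 was 0.353 (limma), where 0.0773% of all genes were called. In a limma fit of the male lithium and vehicle libraries alone, 2 of the 9 were called lower, Mobp (adjusted p 0.0425) and Mal (adjusted p 0.0470), where that fit called 0.101% of all genes. Without lithium male 4 and vehicle female 1, the libraries of lowest summed normalized count, the median was -0.53.

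Markers of other tissue also varied among the male libraries, and the lithium and vehicle ranges overlapped in each list given here. The summed normalized count of 10 markers of striatal medium spiny neurons was 6309.5 to 7219 in the 4 lithium males. In the 3 vehicle males it was 23836, 7159 and 24118, where vehicle male 2 had the low value. In fluoxetine males it was 6709, 12696, 8558 and 6810.2. Drd1, Drd2 and Adora2a, receptors of these neurons, are among them, and over the list the male lithium difference had a median of -1.59 with all 10 markers negative and none called. Olfactory bulb and neuroblast markers had a male lithium median of 2.01, with 9 of 10 positive and none called, and their summed count was 6126 to 24013 in lithium males against 2715 to 7730 in vehicle males, where vehicle male 2 had the high value. Meningeal fibroblast genes had a median of 0.73 with 8 of 8 positive and none called, and a summed count of 3079 to 6889 in lithium males against 2280 to 3270 in vehicle males; their part in the result was not tested. With the striatal and olfactory bulb scores as covariates the median male lithium difference of the 9 myelin genes was -0.05, and that of fluoxetine in males -0.15. Since the striatal markers varied with the 9 genes, this fit cannot separate a difference in tissue content from one in myelin genes.

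In females the lithium values lay on the other side of 0, with a median of 0.14 over the 9 genes and none called (0% of all genes). Without HT lithium female 2 it was -0.0015, and it also turned negative without HT vehicle female 3. Opalin had 438, 458 and 273 in lithium females, against 262, 353, 211 and 422 in vehicle females, a difference of 0.33 (SE 0.31) with overlapping groups. The difference between the sexes in the lithium effect, female minus male, was positive for all 9 genes with a median of 0.70. Opalin had the largest, 0.98 (SE 0.44, unadjusted p 0.0368, adjusted p 0.487 by limma), and none of the 9 was called (0% of all genes). With the marker covariates the median of this difference was 0.15 for lithium and 0.00 for fluoxetine.

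Fluoxetine and lithium were compared directly within HT mice. The 9 differences, fluoxetine minus lithium, lay between -0.05 and 0.02 with a median of 0.00, and limma called none of the 9 and none of all genes (0%), with 0 of the 9 and 1154 of all genes at an unadjusted p under 0.05. Mbp had -0.03 (95% interval -0.44 to 0.38), so the intervals leave room for differences in either direction. The value near 0 depended on the setting: the median was -0.16 with the marker covariates and -0.07 with the replicate block, with 0 of 9 positive in both, and -0.10 to 0.10 when single libraries were left out (HT lithium female 3 and HT fluoxetine female 1 gave the ends). Against WT vehicle, fluoxetine-treated HT mice had a median difference of -0.11 and lithium-treated HT mice -0.11, with 1.49% and 1.97% of all genes called and none of the 9. With the marker covariates the lithium value was 0.02 with 7 of 9 positive, and with the replicate block it was -0.05. Females minus males over all arms had a median of -0.04, with Mog at -0.08 (SE 0.14) and Opalin at 0.02 (SE 0.15), none of the 9 called and 0.214% of all genes called. That median was 0.01 without HT fluoxetine female 1, and 3 other single libraries turned its sign as well.

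The spread within groups was wide for these genes. After removing the group means, the SD of the 9 genes was 0.34 (Cnp) to 0.45 (Mobp) on the log2 scale, against a median of 0.13 over all genes tested. Between 84.3% (Cnp) and 92.0% (Mobp) of all genes tested had a smaller SD. Among genes within 2-fold of the same mean, where counting noise is alike, 96.4% (Mbp) to 99.3% (Mal) had a smaller SD. Of the variance of each gene over the 30 libraries, 75.6% (Opalin) to 87.4% (Ermn) lay within groups.

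The 9 genes varied together over the libraries. Of their 36 pairs, the weakest was Mobp with Opalin, with Pearson r 0.858, and the strongest Mbp with Mobp, with r 0.994 and Spearman's rho 0.983, all over 30 libraries with group means removed. The median over the pairs was r 0.969 and rho 0.953. Each pair's r had a permutation p of 1e-05, the smallest that 100000 permutations of libraries within groups can give, and the largest permutation p of a rho was 3e-05, for Opalin with Mbp and with Mobp. Without the 2 libraries farthest from the median the r of a pair was 0.850 to 0.992. The genes were grouped as markers of 1 cell type with earlier results of these data known, and they share each library's size factor.

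**Figure D3:**
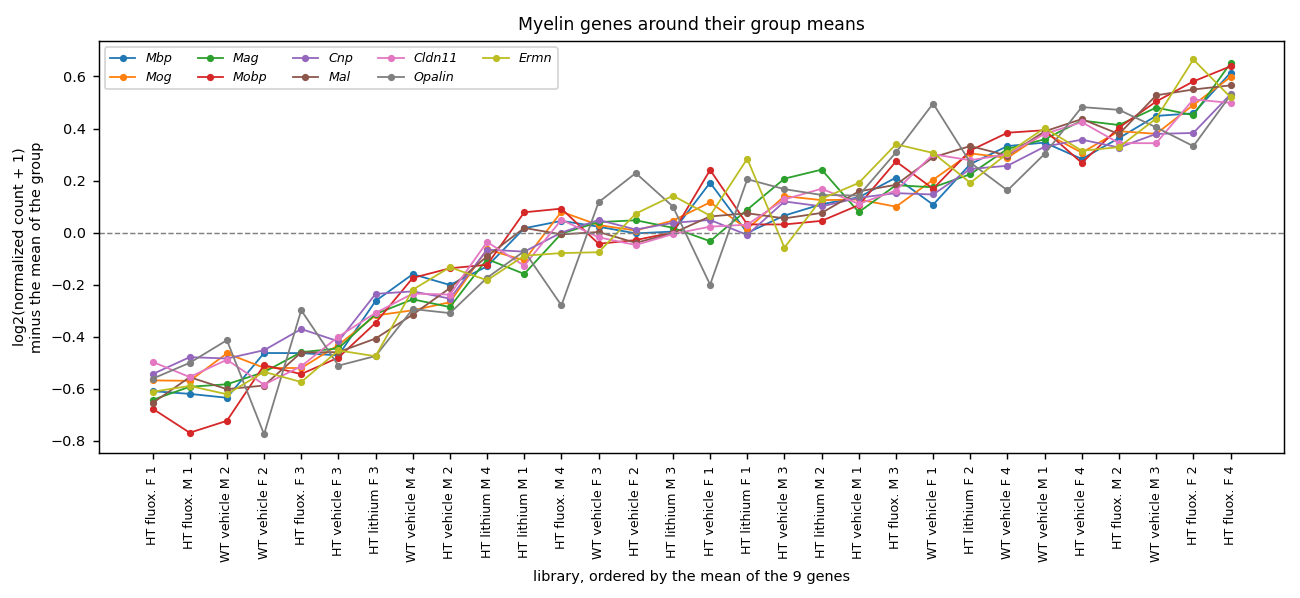
Log2(normalized count + 1) minus the group mean for the 9 genes (coloured lines) in the 30 libraries, ordered from left to right by the mean of the 9. The lines run together, with Opalin departing most often, and the libraries at both ends belong to the HT fluoxetine females, replicates 1 and 4.

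A single component held 96.3% of the variance of the 9 genes around their group means. In 22 of the 30 libraries all 9 genes lay on the same side of their group means. Mobp moved most for a given change in the mean of the other 8 genes, with a slope of 1.105, and Cnp least, with 0.843. Opalin was the loosest member: after fitting the mean of the other 8 its SD was 0.17, against 0.04 for Cnp, 0.05 for Mal and 0.11 for Ermn. Within females alone the median r was 0.974 (15 libraries), and within males alone 0.962 (15 libraries).

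Each gene was also tested relative to the mean of the other 8 (an alternative chosen after the data were seen). None of the 9 was called in any of the 16 comparisons. Ermn had the smallest p: its difference relative to the other 8 was 0.15 with fluoxetine (SE 0.06, unadjusted p 0.0114, adjusted p 0.9998 by limma) and 0.15 with lithium (SE 0.06, unadjusted p 0.0188, adjusted p 0.927 by limma). Relative to the others, the 9 genes differed between genotypes by -0.05 to 0.06, with intervals from -0.16 to 0.18. On this relative scale at most 1.25% of all genes were called between genotypes, 0.0476% with fluoxetine and 0.101% with lithium.

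The genes most like the 9 were found by the r of each other tested gene with their mean standardised residual. Gpr37, a receptor of oligodendrocytes, had the highest r, 0.988, followed by Fa2h, which hydroxylates the fatty acids of myelin lipids, with 0.985, Prr18 with 0.984 and Adamts4, a protease, with 0.984. Myrf, the transcription factor named above, had 0.981, Pllp, the myelin proteolipid plasmolipin, 0.981, Nkx6-2, a homeodomain factor of oligodendrocytes, 0.974, and Ugt8a, which makes galactosylceramide, 0.973. Tmem88b and Plekhh1 had 0.972 and 0.971. Of 16815 other genes 110 had an r above 0.9 and 23 an r below -0.9, and the lowest were Nbl1 (-0.939), Olfr78 (-0.938) and Tnnc1 (-0.933).

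Other oligodendrocyte genes varied with the 9. Of 36 other myelin and mature oligodendrocyte genes, 34 had an r above 0.5 with the 9, where 12.95% of all other genes tested did. Apod (-0.247) and Fth1 (0.127) did not. All 10 oligodendrocyte transcription factors were above 0.5, with Olig1 at 0.921, Sox10 at 0.784, Olig2 at 0.785 and Nkx2-2 lowest at 0.713. Of 10 genes of myelin lipid synthesis 7 were above 0.5, including Gal3st1, the sulfatide-making enzyme, at 0.868, while Enpp2 was at -0.849. These correlations are given as descriptions over 30 libraries that share their size factors and dissection.

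**Figure D4:**
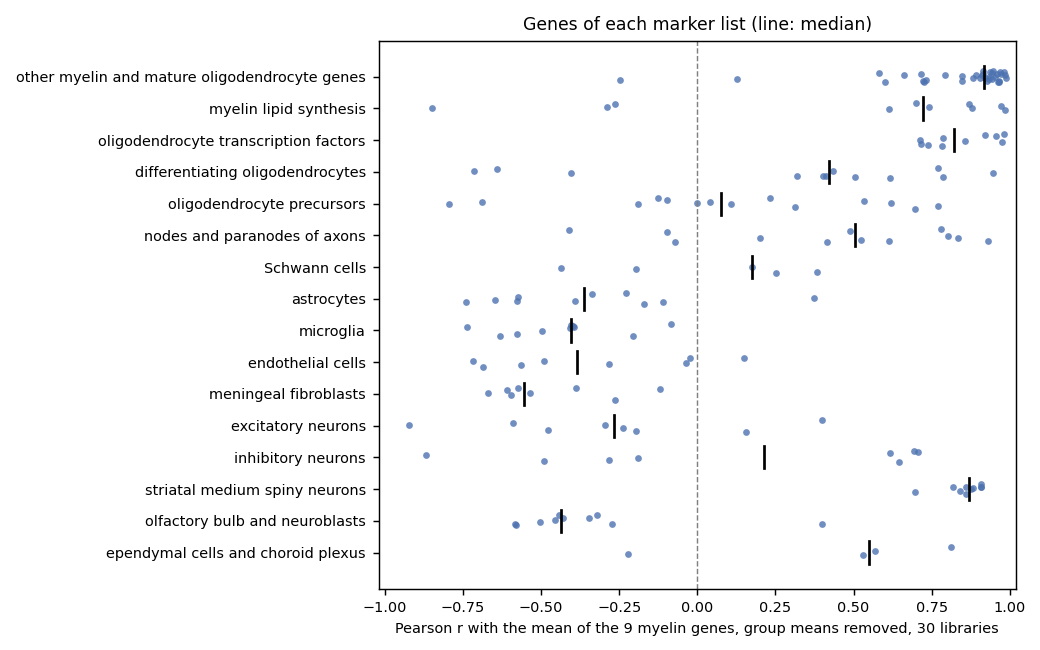
Pearson r of each gene of 16 marker lists (points) with the mean of the 9 myelin genes, over 30 libraries with group means removed; the line is the median of each list. Other myelin genes, transcription factors and striatal markers sit at the right, with medians of 0.917, 0.821 and 0.868, and astrocyte, microglial and meningeal markers have medians left of 0.

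Earlier stages of the lineage followed less closely. Of 12 genes of differentiating oligodendrocytes 5 were above 0.5, among them Bcas1 at 0.945, Gpr17 at 0.787 and Enpp6 at 0.771, and Rras2 was at -0.713. Of 14 precursor genes 4 were above 0.5 and 2 below -0.5, with Pdgfra, the growth factor receptor that defines precursors, at 0.04 and Cspg4, the NG2 proteoglycan, at 0.771. Among 12 genes listed for nodes, the gaps between myelin segments, and the stretches beside them, 6 were above 0.5, led by Cntn2 at 0.930. Of 5 measured Schwann cell genes, which would mark nerve roots, none was above 0.5.

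Genes of these lists were called in a few comparisons, and the called ones were not mature myelin genes. Pdgfra was lower in HT vehicle than in WT vehicle mice, 1435 ± 55.1 against 1626 ± 81.6 normalized counts (SD, n = 7 and 8; log2 difference -0.18, SE 0.04, limma adjusted p 0.0303). Neu4, a sialidase of precursors, was lower as well, 234 ± 19.8 against 273 ± 22.9 (log2 difference -0.21, SE 0.05, adjusted p 0.0466), and these were the 2 of 14 precursor genes called, with 13 of 14 differences negative, where 0.731% of all genes were called and 50.7% of all differences were negative. None of the 36 other myelin genes, 10 lipid genes, 10 transcription factors, 12 differentiation genes and 12 node genes was called for genotype, fluoxetine or lithium. Egr2, a regulator of Schwann cell myelin that is also an early activity-induced gene, was higher with lithium, 734 ± 239 against 409 ± 57.6 (n = 7 each; log2 difference 0.76, SE 0.14, adjusted p 0.0196). By sex, it was called for lithium in males (log2 difference 1.11, SE 0.20, limma adjusted p 0.0158), where 0.0773% of all genes were called. In females lithium called 0% of all genes. Against WT vehicle, fluoxetine-treated HT mice had higher Egr2 and Tmem119 (limma adjusted p 0.0243 and 0.0328), where 1.49% of all genes were called. Lithium-treated HT mice had higher Egr2, Kdr and Cldn5 (limma adjusted p 0.00320, 0.0344 and 0.0473). They had lower Neu4 and Pdgfra (limma adjusted p 0.00631 and 0.0441), where 1.97% of all genes were called.

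Markers of other tissue and cells varied with the 9 genes to different degrees. All 10 striatal markers had an r above 0.5 (0.696 for Foxp1 to 0.909 for Drd1), and the list's mean standardised residual had r 0.882 and rho 0.921 with that of the 9. The summed count of the 10 was 6709 to 40371 in HT fluoxetine libraries, 6309.5 to 16379 in HT lithium libraries, 6938 to 25937 in HT vehicle libraries and 6738 to 24488 in WT vehicle libraries. HT fluoxetine females 2 and 4, the high pair for Mbp, had 32848 and 40371, against 6825 and 7126 in the low pair, replicates 1 and 3. With the striatal and olfactory bulb scores as covariates the 36 pairs of myelin genes had a median r of 0.893 (0.731 to 0.982). Of 8 excitatory neuron genes 0 were above 0.5, and Cux2, a marker of upper cortical layers, was at -0.922. Of 8 inhibitory neuron genes 4 were above 0.5, with Lhx6 at 0.706, and Vip was at -0.869.

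**Figure D5:**
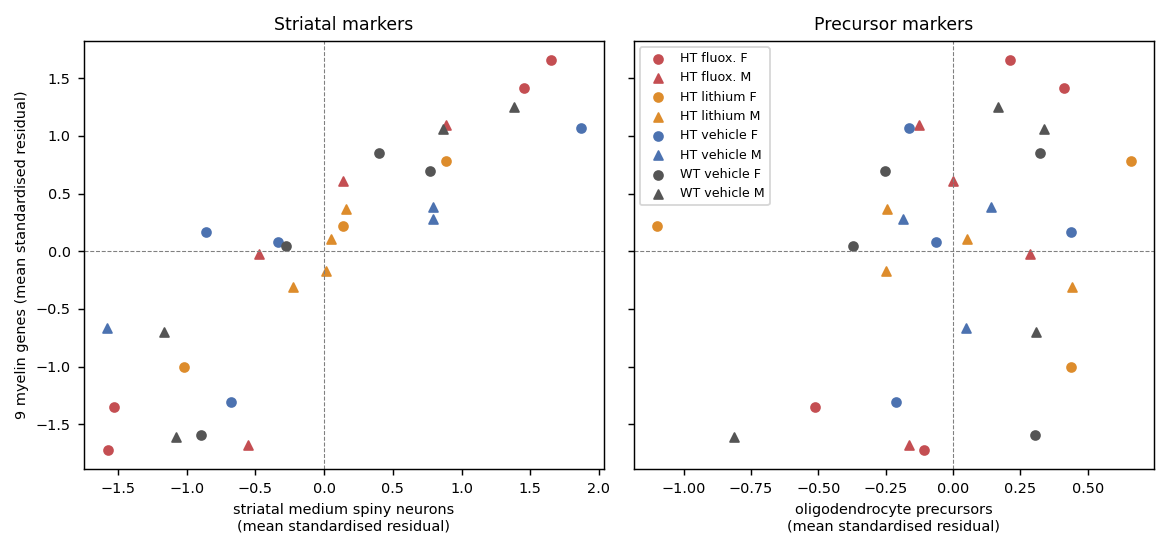
Mean standardised residual of the 9 myelin genes (vertical axis) against that of 10 striatal markers (left) and 14 precursor markers (right), 1 point per library, colours by treatment arm. The points rise together on the left, with r 0.882, and are scattered on the right, with r 0.266.

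Of 10 astrocyte genes 4 had an r below -0.5, with Gjb6 at -0.741; of 8 endothelial genes 3; and of 8 meningeal fibroblast genes 5, where 10.04% of all other genes tested did. Ependymal and choroid plexus genes lay on the other side, with 3 of 4 measured above 0.5 and Ttr at -0.222. Of 10 olfactory bulb and neuroblast genes 3 were below -0.5. As to library depth, the mean standardised residual of the 9 had r -0.117 and rho -0.112 with the reads per library, and r 0.124 and rho 0.104 with the summed normalized count.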

How the data were processed

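The authors deposited 1 table of a normalized signal per gene and library. Its steps show that a gene's count was divided by a size factor of the library, and 100% of the values gave whole reads within 0.01. The submitters' processing notes name Salmon 0.11.2, build GRCm38, DESeq2 1.19.11 and R 3.6.0; which annotation release and strand setting were used is not given. Symbols and coordinates are from GENCODE M21 (18227 of 18240 identifiers matched).

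Groups were taken from the titles. limma 3.58.1 in R 4.3.3 (trend, robust) was fitted to log2(normalized count + 1), which slightly understates changes of low genes, for 16824 genes whose mean was 10 or more, with 8 group means over all 30 libraries (22 residual degrees of freedom) and Benjamini-Hochberg adjustment over all genes. Comparisons over both sexes average the female and male contrasts. Alternatives included edgeR 4.0.16 and DESeq2 1.42.0 on the recovered reads. The script was tested on simulated data.

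The members and lists were chosen with earlier results of these data known. Named genes are the 9, the called list genes (up to 4 per list), and the 10 highest and 3 lowest genes by likeness, without predicted genes; 1 further gene that the likeness rule would name is not reported here. List genes named for their r were chosen after their values were seen. Residuals of same-numbered libraries correlated above 0.1 in every pair only for genotype in males (0.170, 0.185 and 0.278). For fluoxetine in females they were 0.413, -0.108, 0.392 and 0.446. The labels do not say what a shared number means, so these values cannot show whether the numbers pair libraries. The numbers are those of the titles; for 2 HT lithium female libraries the library names carry other numbers, with which the lithium female correlations were -0.40 to -0.02.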

Additional observations from a re-analysis of the deposited data

How the results depend on the processing

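No myelin gene was called under any alternative except 1: fitting only the male lithium and vehicle libraries called 2. Pseudocounts of 0.1 and 5, the filters, TMM and total-count scaling, limma without trend, marker covariates, edgeR, DESeq2, the replicate block (0 of the 9 called in each of the 16 comparisons, and 36 pairs still correlated, median r 0.960) and leaving out each library in turn (0 to 0 of the 9 called) changed no other call. The median of the 9 for lithium was -0.12 under the block, -0.19 under a block with the numbers of the library names (chosen after seeing the data) and 0.01 with the marker covariates; for genotype it was 0.01 with the covariates, and leaving out single libraries gave -0.01 to 0.17 for genotype, -0.29 to -0.10 for fluoxetine (HT fluoxetine females 4 and 1 left out) and -0.27 to -0.12 for lithium (HT lithium females 2 and 3 left out). Counts over all genes moved more: 68 to 245 for genotype (123), 3 to 13 for fluoxetine (6), 5 to 19 for lithium (15), 8 to 43 for lithium in males (13), 0 to 13 between the drugs (0), 165 to 540 and 196 to 503 for the treated HT groups against WT (251 and 332) and 11 to 129 for sex (36). Of the 10 genes most like the myelin genes at least 8 stayed in the list under each alternative. The lowest value of a myelin gene rested on 170 reads, so depth limited the 9 little. The cause of these changes was not tested.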
